A study of Mus musculus with 19 samples.

Results

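The small leucine-rich proteoglycans (SLRPs) of the injured tendon site were followed as 8 genes, Dcn, Bgn, Lum, Ogn, Prelp, Omd, Podn and Aspn, of the 27998 genes listed for each library. They were chosen by name as members of this gene family, with earlier results of these data known, and each of them had its own row in all 19 libraries. The libraries are droplet-based single cell RNA sequencing of cells released by enzyme digestion from the Achilles tenotomy site of mice in a model of heterotopic ossification, in which a burn on the back is combined with transection of the tendon. Day 0, day 7 and day 21 have 4 libraries each and day 3 has 3. A further 4 libraries form the p7N3 group, given a CD47-activating peptide at 10 mg/kg into the peritoneum each day from 3 days before injury until 3 days after it. The study describes day 0 as tissue without injury, although the labels list the burn for those libraries too. Its p7N3 comparison is with mice given PBS, which the labels do not name, so that the day 7 libraries stand in as the comparison here. The label of p7N3 replicate 4 gives no harvest day while those of replicates 1 to 3 give day 7. Young adult male C57BL/6J mice were used per the study, and the labels name C57 and LysmCre/Tgfb1fx/fx mice (Tgfb1 deleted in cells of the myeloid lineage) for the series without saying which library came from which. The study ran replicates at each time to cover variation between mice, but the labels do not tie a library to a mouse, and the p-values below measure the spread between libraries.

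SLRPs are secreted proteins made of a small core of leucine-rich repeats, most of which carry sulfated sugar chains. They bind to collagen fibrils in tendon, skin, cornea and bone, where they limit how fibrils grow and fuse, and several of them also hold growth factors such as TGFβ in the matrix. By their protein sequence, decorin (Dcn), biglycan (Bgn) and asporin (Aspn) form class I, lumican (Lum), PRELP (Prelp) and osteomodulin (Omd) belong to class II with fibromodulin (Fmod) and keratocan (Kera), osteoglycin (Ogn) to class III with epiphycan (Epyc), and podocan (Podn) to class V.

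The family lies in clusters on the genome (GRCm38, GENCODE vM21). Dcn (chr10:97479609-97518143, plus strand) and Lum (chr10:97565128-97572703, plus strand) are 47.0 kb apart with no protein-coding gene between them. Aspn (chr13:49544443-49567565), Omd (chr13:49582462-49592822) and Ogn (chr13:49608046-49624501) follow each other on the plus strand, with 14.9 kb between Aspn and Omd and 15.2 kb between Omd and Ogn, and all of them lie inside Cenpp, a gene on the minus strand. Prelp (chr1:133910304-133921414, minus strand) is 2.3 kb from Optc, Bgn is on the X chromosome (chrX:73483602-73495933, plus strand), and Podn (chr4:108014791-108096445, minus strand) overlaps Scp2 on its own strand, so that reads of this pair may be hard to assign. The 250 bases before the start of 4 members are shown (RefSeq, GRCm38.p6, each written 5′ to 3′ on the plus strand of the chromosome, which is the gene's strand). Bgn was taken because it was the member that rose at every time after injury. Aspn, Omd and Ogn were taken as neighbours, and all of them fell by day 3 in stromal-like cells. By day 7 Aspn was above day 0 there, while Omd and Ogn stayed below it. Capitals mark 4 motifs on either strand. They are TATAAA as in the TATA box, GGGCGG as in the GC box, TGANTCA as in the AP-1 motif and GGAATG as in the TEAD motif. Matches overlap within the same capital run in Ogn and in Bgn.
Bgn: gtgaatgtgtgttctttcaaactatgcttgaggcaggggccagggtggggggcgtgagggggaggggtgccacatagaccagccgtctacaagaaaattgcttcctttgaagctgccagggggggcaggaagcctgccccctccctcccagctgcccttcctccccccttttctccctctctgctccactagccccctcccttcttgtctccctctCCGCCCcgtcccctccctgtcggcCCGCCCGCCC
Aspn: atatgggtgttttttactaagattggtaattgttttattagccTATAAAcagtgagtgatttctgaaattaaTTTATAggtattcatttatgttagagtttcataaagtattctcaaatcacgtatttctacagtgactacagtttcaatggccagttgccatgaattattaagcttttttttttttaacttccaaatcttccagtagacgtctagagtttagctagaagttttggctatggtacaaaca
Omd: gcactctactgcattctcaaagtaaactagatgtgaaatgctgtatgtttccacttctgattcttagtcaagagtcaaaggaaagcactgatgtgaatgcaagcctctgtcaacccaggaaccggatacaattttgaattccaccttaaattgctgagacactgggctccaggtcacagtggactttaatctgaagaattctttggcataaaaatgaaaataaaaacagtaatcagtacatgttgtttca
Ogn: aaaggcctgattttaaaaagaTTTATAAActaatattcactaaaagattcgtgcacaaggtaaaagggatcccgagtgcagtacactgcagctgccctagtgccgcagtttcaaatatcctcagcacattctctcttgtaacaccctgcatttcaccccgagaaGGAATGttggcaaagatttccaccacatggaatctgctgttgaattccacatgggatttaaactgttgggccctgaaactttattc
The Bgn window (chrX:73483351-73483600) had a GC content of 64.4% and held GGGCGG 3 times, a motif found in 32.7% of 32841 promoter windows of the same length. The windows of Aspn (chr13:49544193-49544442), Omd (chr13:49582212-49582461) and Ogn (chr13:49607765-49608014) had GC contents of 30%, 38.4% and 42%, below the lower quartile of all windows (45.2%). TATAAA (in 12.4% of windows) occurred 2 times in the window of Aspn and 2 times, overlapping, in that of Ogn, GGAATG (in 12.6%) once in that of Ogn, and TGANTCA (in 6.75%) in none of them. The TATAAA matches lay 207 and 178 bases before the start in Aspn, and 229 and 227 bases before it in Ogn. CANNTG, found in 66.2% of windows and not capitalized, occurred once in Bgn, once in Aspn and 3 times in Ogn. Matches are descriptions of these letters and were not tested as binding sites. The other members are not shown.

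After the filters, 39541 cells were kept, with 571 to 3668 cells and 3019467 to 39870492 UMIs (unique molecular identifiers, each standing for a captured RNA molecule) per library. The median depth was lowest on day 0, with 3414 to 4693 UMIs per cell, and lay between 6534 and 12406 UMIs in the libraries of the other groups. Cells were clustered with the SLRP genes and their relatives left out, and clusters were named from marker genes. The stromal-like class held 13962 cells, the tenocyte-like class 963 and the mural-like class (pericytes and smooth muscle) 1904. UMIs were summed per library and class, sums of at least 10 cells were used, and levels are given as CPM, the UMIs of a gene per 1000000 UMIs of that class, with the library as the replicate. Any pair of libraries shared 0 to 22 cell barcodes. A value in CPM is a share of the RNA of a class, and less RNA per cell cannot be told apart from a shift among the cells of that class. Levels of different genes are not compared with each other.

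Bgn, Aspn and Prelp were higher in tenocyte-like than in stromal-like cells of the same library, whereas Podn leaned to the stromal-like class. In the 10 libraries that held both, Bgn averaged 5077 CPM in tenocyte-like and 3052 CPM in stromal-like cells, Aspn 2002 and 1097 CPM, and Prelp 602 and 225 CPM, and each of the 3 genes was higher in the tenocyte-like class in 10 of 10 libraries. Podn averaged 39.2 CPM in tenocyte-like and 86.4 CPM in stromal-like cells and was higher in the latter in 8 of 10. Dcn (9702 and 8784 CPM, higher in tenocyte-like cells in 6 of 10), Ogn (768 and 612 CPM, 7 of 10), Omd (19.1 and 14.2 CPM, 5 of 10) and Lum (2263 and 1968 CPM, 8 of 10) differed by less than 1 SD of the tenocyte-like libraries. This SD was 4720 CPM for Dcn and 1277 CPM for Lum, and it includes the differences between days. The order went with the day for both genes. Dcn was higher in stromal-like cells in each day 21 library and in tenocyte-like cells in each other library. Lum was higher in tenocyte-like cells in each library after injury that held both. Over all 19 libraries, the stromal-like mean was 6520 ± 4425 CPM (SD) for Dcn and 3074 ± 1326 CPM for Bgn. These orders come from clusters of the same cells and are descriptions without a test.

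The mural-like class stood apart by which members it held. Bgn averaged 1622 ± 833 CPM and Aspn 431 CPM in mural-like cells, above monocyte/macrophage-like cells in 19 of 19 libraries for both genes, with median ratios of 15.6 and 19.8. Dcn (222 CPM) and Lum (61.8 CPM) were near the level of cells that should not make them, which was 111 and 43.3 CPM in monocyte/macrophage-like and 145 and 42.8 CPM in endothelial-like cells. They are read as close to background in mural-like cells, although Dcn was above monocyte/macrophage-like cells in 15 and Lum in 14 of 19 libraries. Ogn averaged 41.1 CPM in mural-like, 11.6 CPM in monocyte/macrophage-like and 12.4 CPM in endothelial-like cells, and its median ratio to monocyte/macrophage-like cells was 2.20, against 2.18 for Dcn. Prelp in mural-like cells (44.7 CPM) was above endothelial-like cells (42.9 CPM) in 8 of 19 libraries and above monocyte/macrophage-like cells (5.74 CPM) in 19 of 19. Podn averaged 12.2 CPM in mural-like, 1.37 CPM in monocyte/macrophage-like and 1.88 CPM in endothelial-like cells. It was above each of these 2 classes in 17 of 19 libraries, with median ratios of 8.29 and 8.51. On day 0 it rested on 0 to 4 UMIs in each mural-like sum. Omd was at 0 to 3 UMIs in each mural-like sum.

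The share of cells with at least 1 UMI gave the same picture once depth was equal. Bgn had a UMI in 97.0% of stromal-like, 99.7% of tenocyte-like and 92.3% of mural-like cells, against 53.9% of monocyte/macrophage-like cells. The median depths of these classes were 14094.5, 21281, 8386.5 and 6366 UMIs. With each cell thinned to 1500 UMIs, the shares for Bgn became 92.4%, 98.7%, 76.2% and 16.8%, and those for Dcn became 94.3%, 96.7%, 16.4% and 10.5%, so that mural-like cells were close to monocyte/macrophage-like cells for Dcn and far from them for Bgn. Thinning left out 70 of the stromal-like, 0 of the tenocyte-like, 11 of the mural-like and 38 of the monocyte/macrophage-like cells.

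**Figure D1:**
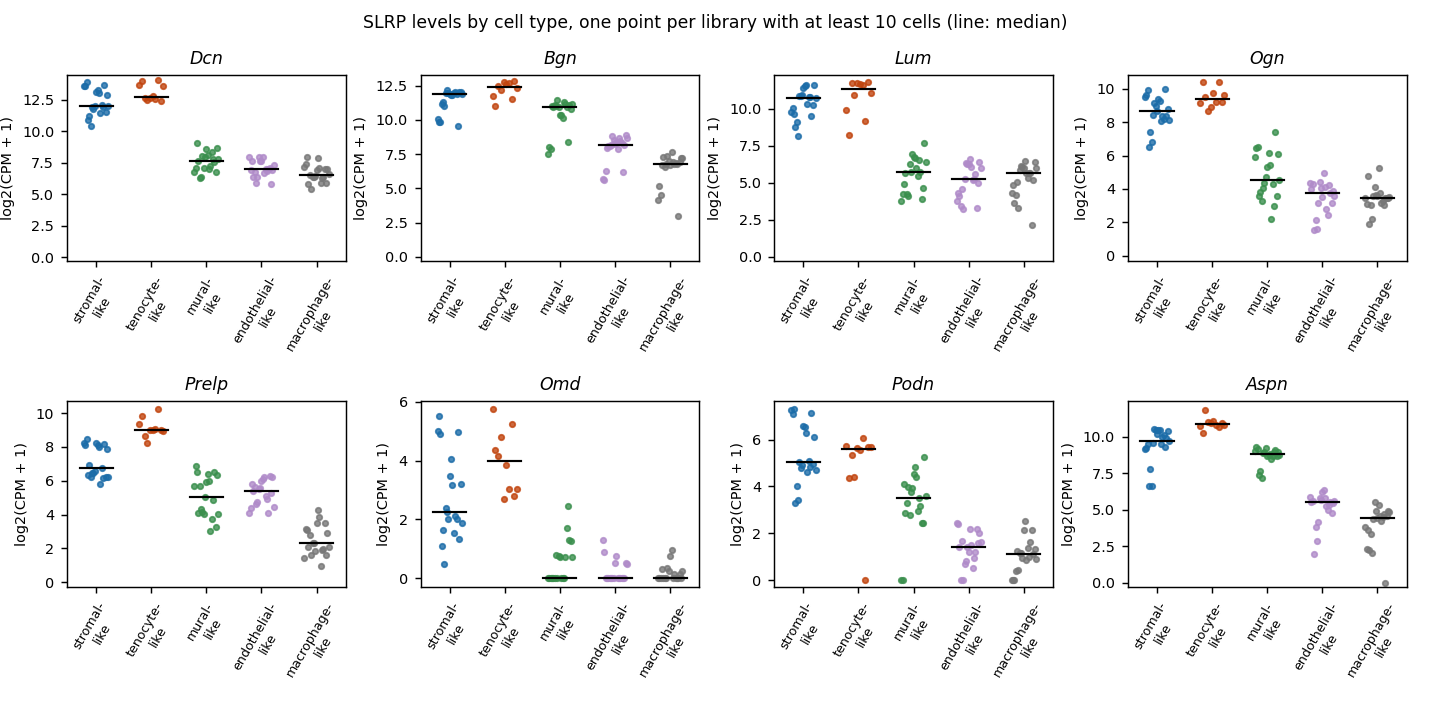
Level of each SLRP gene as log2(CPM + 1) (vertical axis) in 5 cell classes, with one point per library and a line at the median. Stromal-like and tenocyte-like points lie above the endothelial-like and macrophage-like background for all 8 genes by their medians. Mural-like points do so clearly for Bgn and Aspn, do so by their median for Podn, and lie near it for Dcn and Lum.

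In stromal-like cells the family split after injury. Bgn rose by day 3 and stayed high, Lum and Aspn fell by day 3 and then rose above day 0, and Dcn, Podn, Omd, Ogn and Prelp fell by day 3, of which all but Ogn rose again from day 7 to day 21. The class was made of different clusters on day 0 and day 3, and the day 3 changes could not be compared within a cluster. On day 3, 1 of the 8 genes was higher and 7 were lower than on day 0 (edgeR quasi-likelihood test with Benjamini-Hochberg adjustment over all genes tested), where 33.4% of all 10504 genes tested were higher and 32.8% lower. Day 7 had 3 members higher and 5 lower (all genes 27.9% and 27%), and day 21 had 3 higher and 4 lower than day 0 (18.4% and 19.1%). Between day 7 and day 21, 5 members rose and 0 fell, against 17.9% and 17.6% of all genes. The median log2 fold change of the 8 members was -2.38 on day 3, -1.39 on day 7 and -0.37 on day 21 against day 0, and +1.06 on day 21 against day 7, while the median over all genes tested lay between -0.02 and 0.01. All 8 members passed the filter on low counts in each of these comparisons.

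**Figure D2:**
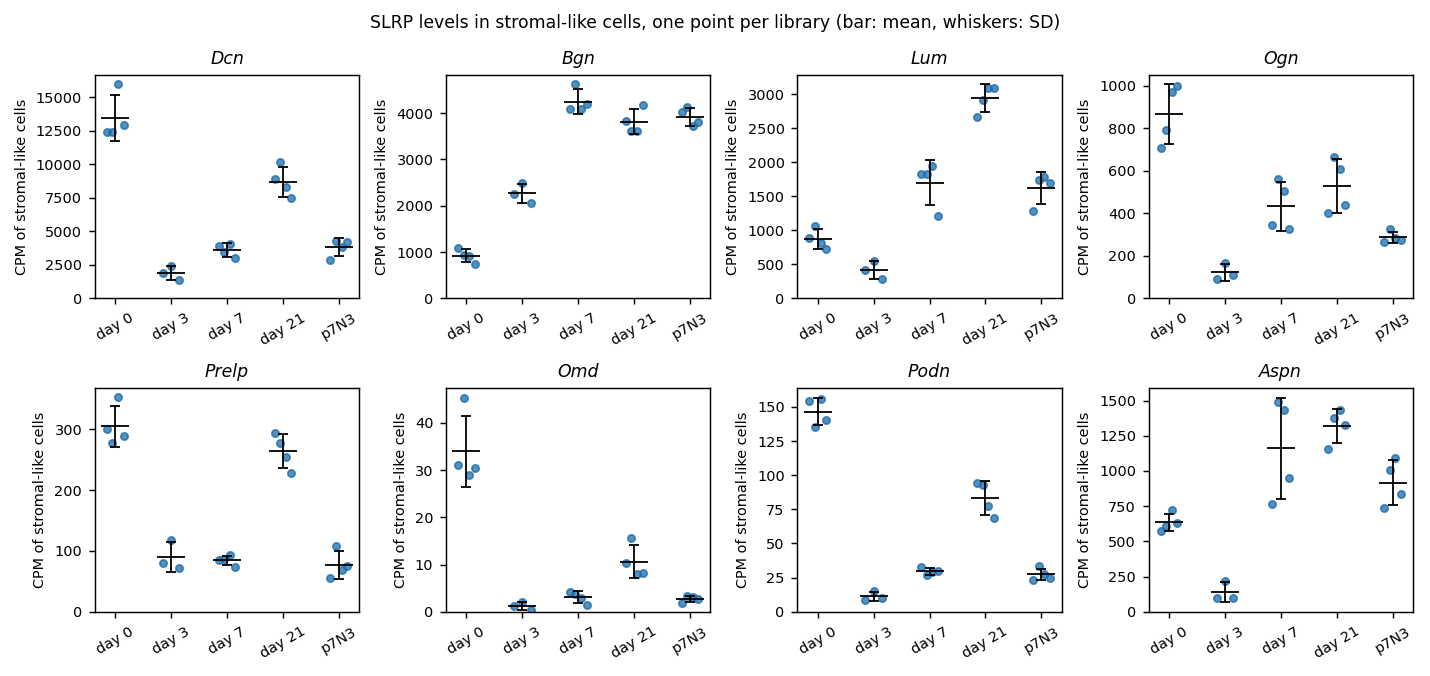
CPM of each SLRP gene in stromal-like cells (vertical axes from 0, one scale per gene) by group, with one point per library, a bar at the mean and whiskers of 1 SD. Bgn rises from 923 CPM on day 0 to 4245 CPM on day 7, and Dcn falls from 13432 to 1889 CPM on day 3 before it regains 8690 CPM on day 21.

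Among class I genes, Bgn encodes biglycan, a proteoglycan of tendon and bone matrix. Its level in stromal-like cells was 1086, 936, 916 and 753 CPM in the day 0 libraries, 2256, 2486 and 2068 CPM on day 3, 4078, 4637, 4078 and 4186 CPM on day 7, and 3833, 3620.4, 3614 and 4179 CPM on day 21. Each library after injury was above each day 0 library, and day 7 and day 21 overlapped. The log2 fold change against day 0 was 1.42 ± 0.12 (SE, adjusted p = 4.69e-07) on day 3, 2.24 ± 0.12 (adjusted p = 4.28e-08) on day 7 and 2.11 ± 0.11 (adjusted p = 1.18e-07) on day 21. Day 21 differed from day 7 by -0.12 ± 0.08 (adjusted p = 0.267).

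Dcn encodes decorin, which coats collagen fibrils and binds TGFβ. It was at 12420.4, 12419, 15971 and 12918 CPM on day 0, at 1889, 2437 and 1341 CPM on day 3, at 3940.4, 3471, 4058 and 2989.9 CPM on day 7 and at 8873, 10147, 8281 and 7459.8 CPM on day 21. No group overlapped another, with the order day 0, day 21, day 7 and day 3 from high to low. The log2 fold change against day 0 was -2.71 ± 0.19 (adjusted p = 1.43e-07) on day 3. It was -1.86 ± 0.14 on day 7 (adjusted p = 5.19e-07) and -0.57 ± 0.12 on day 21 (adjusted p = 0.00210). From day 7 to day 21 Dcn rose by 1.30 ± 0.12 (adjusted p = 0.000168).

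Aspn encodes asporin, which lacks the sugar chains of its class and is known from cartilage and the periodontal ligament. It was at 573, 610.2, 720.0 and 632 CPM on day 0, 98.7, 220.5 and 98.2 CPM on day 3, 766, 1489, 1436 and 952 CPM on day 7, and 1154, 1379, 1433 and 1323 CPM on day 21. It was thus lowest on day 3 and above day 0 in each library of days 7 and 21. Against day 0, the log2 fold change was -2.06 ± 0.25 (adjusted p = 1.42e-05) on day 3, 0.91 ± 0.19 (adjusted p = 0.00166) on day 7 and 1.12 ± 0.11 (adjusted p = 9.30e-06) on day 21.

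Of class II, Lum encodes lumican, a keratan sulfate proteoglycan that regulates fibril thickness. Its stromal-like levels were 890.2, 1068, 810.0 and 719 CPM on day 0, 421, 549 and 281 CPM on day 3, 1821, 1834, 1949.8 and 1205 CPM on day 7, and 2669.8, 2919.7, 3093 and 3097 CPM on day 21, with no overlap between days. The log2 fold change against day 0 was -0.93 ± 0.19 (adjusted p = 0.000746) on day 3, 1.01 ± 0.15 (adjusted p = 0.000141) on day 7 and 1.82 ± 0.11 (adjusted p = 2.98e-07) on day 21. These are the directions of Aspn, while Dcn, its neighbour on the chromosome, was below day 0 on each day.

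Prelp encodes a protein with a basic, heparin-binding end that anchors basement membranes to collagen. It was at 299.8, 278, 353 and 289 CPM on day 0, 79.5, 119 and 72.7 CPM on day 3, 85.3, 86.4, 92.5 and 73.7 CPM on day 7, and 294, 277, 255 and 229 CPM on day 21. It was low on days 3 and 7, and on day 21 it overlapped day 0 again. The log2 fold change was -1.64 ± 0.17 (adjusted p = 3.02e-06) on day 3, -1.82 ± 0.12 (adjusted p = 1.84e-07) on day 7 and -0.16 ± 0.11 (adjusted p = 0.288) on day 21 against day 0. It was 1.68 ± 0.11 (adjusted p = 4.61e-05) on day 21 against day 7.

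Omd encodes osteomodulin, a keratan sulfate proteoglycan of mineralized tissue. It was at 31.2, 45.2, 28.9 and 30.6 CPM on day 0, 1.17, 2.12 and 0.394 CPM on day 3, 4.24, 3.80, 3.01 and 1.51 CPM on day 7, and 10.2, 15.6, 8.07 and 8.30 CPM on day 21. Day 0 and day 21 did not overlap each other or the days between. Its log2 fold change against day 0 was -4.47 ± 0.32 (adjusted p = 1.61e-07) on day 3, -3.37 ± 0.28 (adjusted p = 9.94e-07) on day 7 and -1.62 ± 0.21 (adjusted p = 8.82e-05) on day 21. The values on day 3 rest on 3 to 27 UMIs per library.

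Ogn (class III) encodes osteoglycin, also called mimecan, a small keratan sulfate proteoglycan of connective tissue. It was at 708, 789.8, 970.3 and 996 CPM on day 0, 89.0, 168 and 109.6 CPM on day 3, 346, 559, 502 and 325 CPM on day 7, and 401, 662, 607 and 441 CPM on day 21. Each library after injury was below each on day 0, and days 7 and 21 overlapped. Against day 0, its log2 fold change was -2.70 ± 0.21 (adjusted p = 3.43e-07) on day 3, -0.96 ± 0.19 (adjusted p = 0.000891) on day 7 and -0.66 ± 0.17 (adjusted p = 0.00861) on day 21.

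Podn (class V) encodes podocan, a collagen-binding protein known from vessel walls and kidney. It was at 154, 136, 155 and 141 CPM on day 0, 8.81, 15.2 and 9.73 CPM on day 3, 32.5, 26.7, 29.0 and 30.0 CPM on day 7, and 94.5, 92.8, 77.3 and 68.6 CPM on day 21. The 4 days did not overlap. Its log2 fold change against day 0 was -3.56 ± 0.17 (adjusted p = 6.31e-09) on day 3, -2.28 ± 0.10 (adjusted p = 1.67e-08) on day 7 and -0.77 ± 0.12 (adjusted p = 0.000275) on day 21. In these same sums the 8 tenocyte markers together were at 197 to 390 CPM on day 0 and at 1511 to 2073 CPM on day 21. The 12 monocyte/macrophage markers were at 120 to 237 CPM on day 0 and at 1473 to 1736 CPM on day 3, and the 7 granulocyte markers at 55.0 to 97.2 and 1437 to 2446 CPM. On day 7 the tenocyte markers were at 898 to 1527 CPM, and the 13 mural markers were at 1320 to 2578 CPM after 197 to 376 CPM on day 0. The part of these shifts in the changes of the SLRP genes was not tested.

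The stromal-like class was made of different cells on different days, and the SLRP genes differed between its clusters. A cluster led by Myoc held 95.3% of stromal-like cells on day 0, and a cluster led by Prg4 held 91.3% on day 3. Their median depths were 5730 and 32743 UMIs per cell. The Myoc cluster held 2 to 3 cells in each day 3 library, and day 3 could not be compared with day 0 within any cluster. Clusters called C1qtnf3 and Clec3b here, each after a leading gene, held 32.0% and 23.8% on day 7. The Clec3b cluster held 53.9% on day 21, when the Myoc cluster held 19%. Clec3b was also among the leading genes of the Myoc cluster. On day 7, Aspn averaged 2104 ± 329 CPM (SD, n = 4) in the C1qtnf3 cluster, 783 ± 175 CPM in the Clec3b cluster and 479 ± 28 CPM in the Myoc cluster. Dcn had the opposite order on that day, with 3142, 6085 and 7441 CPM in the C1qtnf3, Clec3b and Myoc clusters. Prelp averaged 74.8, 213 and 308 CPM in the same clusters, and 13.1 CPM in a cluster led by Crabp1. Omd was high in a small cluster led by Sfrp5 (161 cells in all, 36 of them on day 0). It was at 242, 348 and 184 CPM there in 3 day 0 libraries, against 21.1 CPM for the Myoc cluster, and each value rests on few cells. Omd was also high in chondrocyte-like cells of day 21 (98.9 ± 92.8 CPM, n = 4). The SLRP genes took no part in the clustering, and these levels are given without a test.

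**Figure D3:**
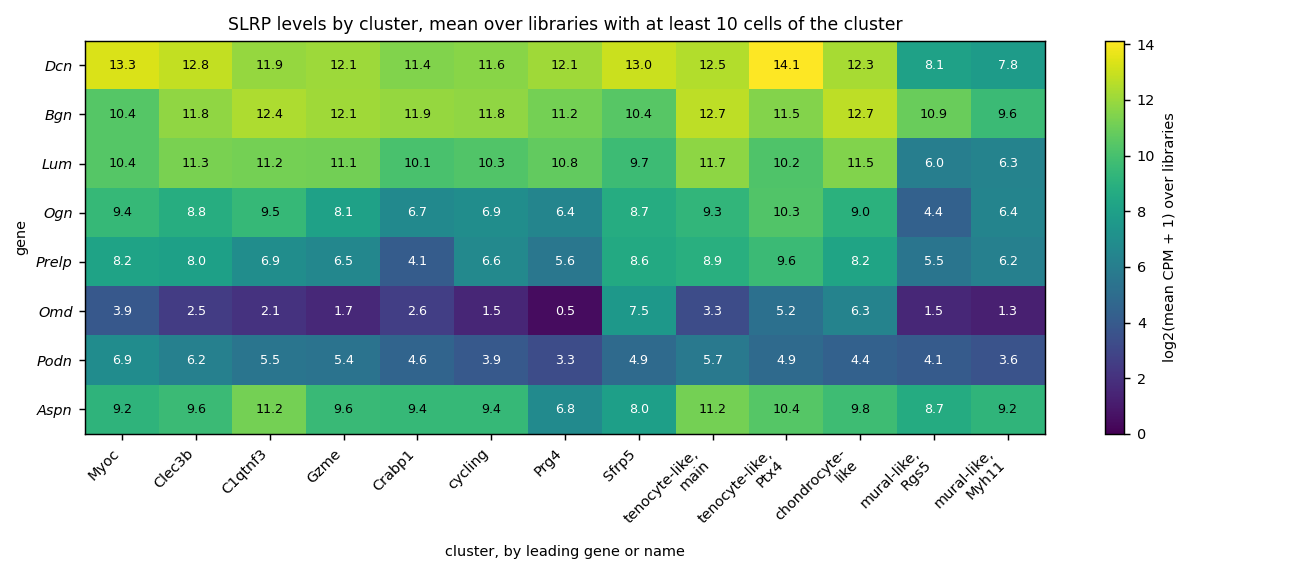
Mean level of each SLRP gene (rows) in 8 stromal-like, 2 tenocyte-like, 1 chondrocyte-like and 2 mural-like clusters (columns), as log2(mean CPM + 1) over all libraries with at least 10 cells of the cluster. Omd stands out in the Sfrp5 cluster, Aspn in the C1qtnf3 cluster and the main tenocyte-like cluster, and Bgn but not Dcn stays high in the mural-like clusters.

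Within the Myoc cluster alone, a comparison added after the values of the whole class were known, the changes were smaller, and those of Aspn and Prelp had the opposite sign to the class. From day 0 to day 7, 2 members were higher and 4 lower, where 9.11% of 6895 genes were higher and 7.54% lower. Aspn was at 590, 679, 733 and 674 CPM on day 0 and at 479, 509, 487 and 442 CPM on day 7, so that every day 7 library was below every day 0 library. Its log2 fold change was -0.38 ± 0.12 (adjusted p = 0.0410), against 0.91 ± 0.19 in the whole class. Prelp was at 292, 251, 353 and 288 CPM on day 0 and at 234, 331, 327 and 338 CPM on day 7, which overlapped, with a log2 fold change of 0.12 ± 0.15 (adjusted p = 0.660) where the whole class fell by 1.82. Bgn (0.80 ± 0.13, adjusted p = 0.000189) and Lum (0.76 ± 0.18, adjusted p = 0.00722) rose, and Dcn (-0.77 ± 0.12, adjusted p = 0.000199), Podn (-1.07 ± 0.21, adjusted p = 0.00150) and Omd (-1.04 ± 0.32, adjusted p = 0.0317) fell. The change of Ogn was -0.33 ± 0.18 (adjusted p = 0.251). At resolution 2, a cluster led by Inmt and Myoc held 742 cells on day 0, 41 on day 7 and 237 on day 21. A cluster led by Pi16, with Myoc among its leading genes, held 276, 322 and 167 cells on these days. Whether the mix of cells within the Myoc cluster changed, and its part in the values of days 7 and 21, was not tested.

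By day 21, 2 members still differed from day 0 in the Myoc cluster. Bgn (0.97 ± 0.12, adjusted p = 7.58e-05) and Lum (0.82 ± 0.12, adjusted p = 0.000351) were still higher than on day 0 and 0 members were lower, against 2.76% and 2.83% of 7985 genes. Dcn was at 12472, 13947, 11121 and 13360.3 CPM, of which 3 libraries lay within the range of day 0 and 1 below it. Its log2 fold change was -0.10 ± 0.10 (adjusted p = 0.704), and Podn differed from day 0 by -0.07 ± 0.13 (adjusted p = 0.865). From day 7 to day 21, Dcn (0.69 ± 0.10, adjusted p = 0.000273) and Podn (1.01 ± 0.25, adjusted p = 0.0174) rose in this cluster and 0 of the 7 members tested fell, against 3.99% and 4.77% of all genes.

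Dcn also rose from day 7 to day 21 in the Clec3b and C1qtnf3 clusters, which were compared in the same way. In the Clec3b cluster Dcn (0.78 ± 0.10, adjusted p = 0.000148), Lum (0.50 ± 0.11, adjusted p = 0.00833) and Aspn (0.48 ± 0.15, adjusted p = 0.0451) rose and 0 of 8 fell (all genes 7.01% and 7.35%). In the C1qtnf3 cluster Dcn (0.78 ± 0.09, adjusted p = 0.000313), Lum (1.00 ± 0.13, adjusted p = 0.000494), Prelp (1.53 ± 0.17, adjusted p = 0.000156), Podn (0.93 ± 0.12, adjusted p = 0.000581) and Aspn (0.37 ± 0.11, adjusted p = 0.0400) rose and 0 of the 7 tested fell (all genes 8.33% and 6.36%). Bgn differed between these days by 0.18 ± 0.13, 0.02 ± 0.10 and -0.01 ± 0.09 in the Myoc, Clec3b and C1qtnf3 clusters, and passed the test in none of them.

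**Figure D4:**
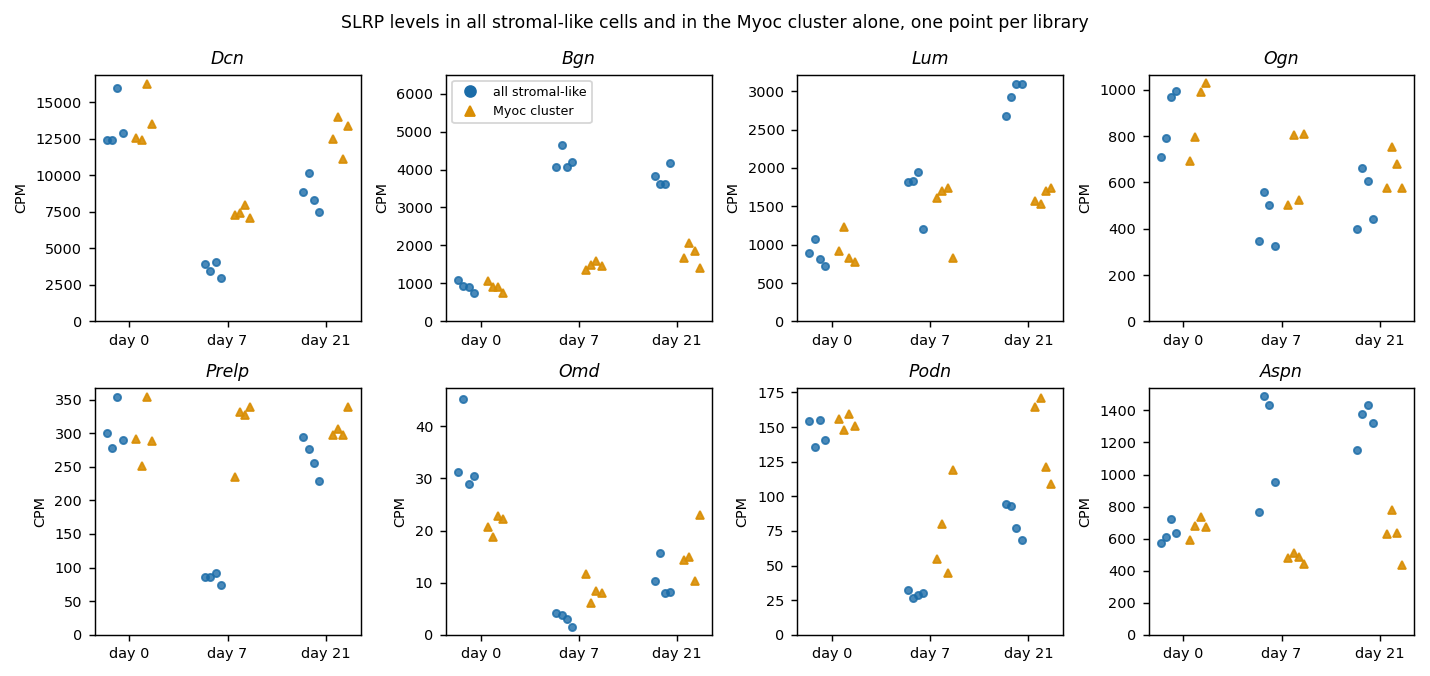
CPM of each SLRP gene (vertical axes from 0) on days 0, 7 and 21 in all stromal-like cells (circles) and in the Myoc cluster alone (triangles), with one point per library. The class and the cluster are close on day 0 for all genes but Omd, and on day 7 they part, with Aspn up in the class and down in the cluster and Prelp down in the class and overlapping day 0 in the cluster.

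Tenocyte-like cells were few before day 21 (49 cells on day 0, 2 on day 3, 32 on day 7 and 855 on day 21), which left 3, 0, 2 and 4 libraries with at least 10 cells, so that day 3 could not be compared. Their marker sum, over 8 tenocyte genes such as Scx, Tnmd and Comp, of which Htra4 was at 0 on days 0 and 7, was 15114 to 19788 CPM on day 0, 5847 to 9153 CPM on day 7 and 5968 to 7886 CPM on day 21. The part of this difference in the SLRP changes was not tested. Lum was at 945, 300.5 and 562 CPM on day 0, 3424 and 1960.4 CPM on day 7, and 3326, 3280.4, 3146 and 3599 CPM on day 21. Bgn was at 3348, 2065 and 2869 CPM on day 0, 5629.6 and 4691 CPM on day 7, and 6912, 6220.4, 6659 and 7205 CPM on day 21. Dcn went the other way, from 12941, 16536 and 17396 CPM to 6506 and 5685 CPM and then 6301, 7189, 6264 and 5401 CPM. For all 3 genes, no library after injury overlapped day 0. The C1qtnf3 cluster, named stromal-like, had Scx among its leading genes. Its marker score was 3.18 for the stromal and 2.67 for the tenocyte list, and it held 1842 cells on day 7. The number of tenocyte-like cells on day 7 thus depends on the name given to this cluster.

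On day 7, 2 of the 6 members tested were higher and 2 lower than on day 0 in tenocyte-like cells, against 8.54% and 10.7% of 1734 genes. Lum (2.13 ± 0.43, adjusted p = 0.0119) and Bgn (0.87 ± 0.25, adjusted p = 0.0427) rose, and Dcn (-1.39 ± 0.25, adjusted p = 0.00881) and Prelp (-1.45 ± 0.33, adjusted p = 0.0181) fell. On day 21, Lum (2.78 ± 0.25, adjusted p = 1.81e-06), Bgn (1.59 ± 0.17, adjusted p = 1.13e-05) and Aspn (0.64 ± 0.15, adjusted p = 0.00756) were higher and Dcn (-1.02 ± 0.16, adjusted p = 0.000451) was lower than on day 0. These are 3 and 1 of 8 members, against 7.89% and 3.86% of 9881 genes, whose median was +0.20. Between days 7 and 21, 0 of the 8 members passed in either direction (0.798% and 0.34% of all genes), and 3 members, Prelp, Bgn and Aspn, had an unadjusted p under 0.05 (0.00104, 0.00527 and 0.0294). DESeq2 called 2 members there, Prelp and Bgn. With all genes allowed as variable genes in the clustering, 6 members passed, and Omd (1.02) and Aspn (0.55) changed sign. Bgn on day 7 lost its call in 4 of 5 fits that left out a library (those without day 0 replicate 1, 3 or 4 or day 7 replicate 2). Aspn on day 21 lost its call without day 21 replicate 1 (adjusted p = 0.0507) or 4 (adjusted p = 0.0522). The difference of Prelp between days 21 and 0 was -0.55 ± 0.18 (adjusted p = 0.0520), with 640.2, 921 and 1221 CPM on day 0 against 503 to 531 CPM on day 21, which did not overlap.

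Tenocyte-like cells fell into 2 clusters, with medians of 7382 and 22771 UMIs per cell. The shallower one, led by Chad and Ptx4, held 48 of the day 0 and 64 of the day 21 cells. On day 21 it had a Dcn level of 20024 CPM (n = 3 libraries) where the main tenocyte-like cluster had 5707 CPM (n = 4), and a Bgn level of 3162 against 6901 CPM. In the Ptx4 cluster itself, Dcn was at 12941, 16658 and 17396 CPM on day 0 and at 20359.5, 17419 and 22293 CPM on day 21, so that each day 21 library lay above day 0 where the whole class was lower. Bgn averaged 2722 CPM on day 0 and 3162 CPM on day 21 in this cluster, with overlapping libraries (1948 to 3348 and 2755 to 3736 CPM). Lum was at 154 to 945 CPM on day 0 and 1142 to 2235 CPM on day 21, without overlap. These levels are a description with n = 3 libraries a day and no test.

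In mural-like cells Bgn rose by day 3. It was at 183, 254, 227 and 333 CPM on day 0, 2089, 1927 and 2125 CPM on day 3, 2088, 2805, 1919 and 2191 CPM on day 7, and 1327, 1312, 1134 and 1775 CPM on day 21. Every library after injury was above every day 0 library, and day 21 lay below day 7. Its log2 fold change was 3.02 ± 0.16 (adjusted p = 6.55e-09) on day 3, 3.08 ± 0.17 (adjusted p = 2.12e-10) on day 7 and 2.40 ± 0.17 (adjusted p = 7.99e-08) on day 21 against day 0. It was -0.64 ± 0.14 (adjusted p = 0.00280) on day 21 against day 7. In the same sums the 17 stromal markers together were at 1711 to 3019 CPM on day 0 and at 10369.5 to 16942 CPM on days 3 to 21, with 1 of the 17, Cdh11, at 0 in each day 0 library. The 13 mural markers together were at 29375 to 35536 CPM on day 0 and 17643 to 22400 CPM on day 7, and Dcn was at 241 CPM on day 0 and 189.8 CPM on day 7. The part of stromal transcripts in the rise of Bgn was not tested. Mural-like cells lay in a cluster led by Rgs5 and another led by Myh11. The Myh11 cluster held 136 of 181 mural-like cells on day 0, 22 of 95 on day 3, 70 of 559 on day 7 and 188 of 582 on day 21. No comparison was made within these clusters. The part of this shift in the changes of the mural-like class between days was not tested.

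Aspn and Ogn moved the other way in mural-like cells. Aspn was at 528, 614, 569 and 539.9 CPM on day 0 and fell to 169, 198 and 144 CPM on day 3 (-1.74 ± 0.16, adjusted p = 4.98e-07). It was at 411 to 589 CPM on day 7 (-0.28 ± 0.13, adjusted p = 0.0949), and stood at 407 to 499 CPM on day 21 (-0.40 ± 0.11, adjusted p = 0.00806). Ogn was at 59.6, 87.7, 89.4 and 171 CPM on day 0. Its log2 fold change was -3.23 ± 0.39 (adjusted p = 8.03e-06) on day 3, -2.61 ± 0.32 (adjusted p = 2.23e-06) on day 7 and -0.99 ± 0.30 (adjusted p = 0.0172) on day 21, where the groups overlapped. Prelp fell on day 3 (-1.68 ± 0.38, adjusted p = 0.00176) and day 7 (-2.27 ± 0.36, adjusted p = 4.01e-05) and rose from day 7 to day 21 (1.99 ± 0.26, adjusted p = 8.34e-05). Lum rose by 1.79 ± 0.61 (adjusted p = 0.0227) on day 7 and 2.66 ± 0.51 (adjusted p = 0.000806) on day 21, and Podn by 2.09 ± 0.63 (adjusted p = 0.0184) on day 21. They started from 15 and 5 UMIs in all on day 0, and Lum lay near its level in monocyte/macrophage-like cells. The calls of Lum on day 7 and of Podn on day 21 were lost without day 0 replicate 1 or 4 (adjusted p = 0.0656 and 0.0566 for Lum, 0.0777 and 0.0571 for Podn). That of Ogn on day 21 was lost without day 0 replicate 4 (-0.56, adjusted p = 0.204). In all, 1 of 5 members tested was higher and 3 lower on day 3 (28.6% and 29.2% of 3868 genes), 2 of 6 higher and 2 lower on day 7 (24.9% and 21.8% of 7698). There were 3 of 7 higher and 2 lower on day 21 against day 0 (15.8% and 15.9% of 6177), and 3 of 7 higher and 1 lower on day 21 against day 7 (15.9% and 15.3% of 9229). Against day 0, Lum was not tested on day 3 and Podn not on day 3 or 7, for low counts. They passed the filter on the days when they were higher, so that the counts are descriptions. Without day 0 replicate 4, 3 members rather than 5 passed on day 21 against day 0.

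**Figure D5:**
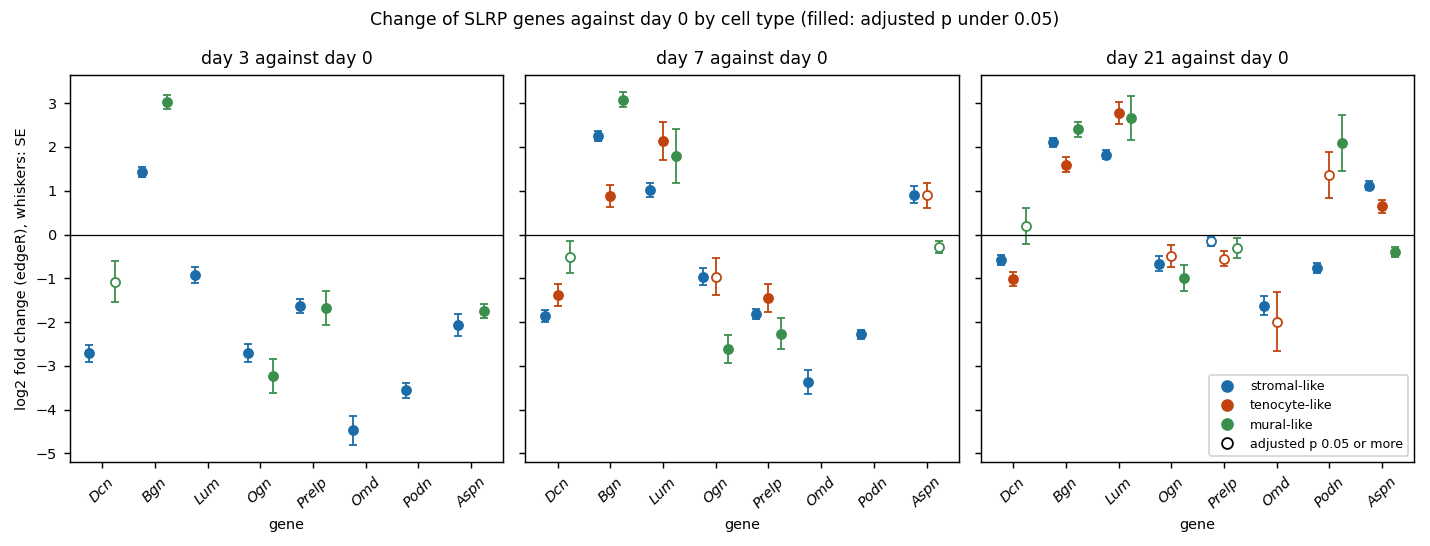
Log2 fold change of each SLRP gene against day 0 on days 3, 7 and 21 (panels) in stromal-like, tenocyte-like and mural-like cells, with whiskers of 1 SE and filled points for an adjusted p under 0.05. Bgn is above 0 in each class and on each day that could be fitted, and Aspn is above 0 in stromal-like and below 0 in mural-like cells on days 7 and 21. The points of each class compare different cells on different days. The Myh11 cluster held 136 of 181 mural-like cells on day 0 and 70 of 559 on day 7. The Ptx4 cluster held 48 of 49 tenocyte-like cells on day 0 and 64 of 855 on day 21. Within the Myoc cluster alone, which is not drawn, Aspn was below 0 on days 7 and 21.

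The difference between classes was tested by an interaction term for day 7 against day 0. Both sides of these tests compared different cells. The Myoc cluster held 95.3% of the stromal-like class on day 0 and 3.98% on day 7. Within the Myoc cluster alone Aspn fell between these days, where the whole stromal-like class rose. The Myh11 cluster held 136 of 181 mural-like cells on day 0 and 70 of 559 on day 7. The Ptx4 cluster held 48 of 49 tenocyte-like cells on day 0 and 5 of 32 on day 7. The part of these shifts in the interaction values was not tested. Between mural-like and stromal-like cells 5 of 8 members differed, where 25.5% of 10385 genes did. The change of Bgn was larger in mural-like cells by 0.82 ± 0.19 on the log2 scale (adjusted p = 0.00245), and those of Aspn (-1.16 ± 0.17, adjusted p = 1.72e-05) and Ogn (-1.64 ± 0.24, adjusted p = 2.45e-05) were lower there. Dcn (1.42 ± 0.28, adjusted p = 0.000566) and Podn (2.83 ± 0.67, adjusted p = 0.00288) differed as well, but Podn had 5 UMIs in mural-like cells on day 0. Dcn was close to background in mural-like cells. Ogn averaged 102 CPM there and 13.5 CPM in monocyte/macrophage-like cells on day 0, and 17.8 and 12.2 CPM on day 7, so that it was near background on day 7. Between tenocyte-like and stromal-like cells 3 of 8 differed (5.02% of 8720 genes), with Bgn changing less (-1.20 ± 0.28, adjusted p = 0.000786) and Lum more (1.11 ± 0.29, adjusted p = 0.00537) in tenocyte-like cells. This test used 3 day 0 and 2 day 7 libraries, with 10 to 20 tenocyte-like cells each. Podn differed by 2.87 ± 0.74 (adjusted p = 0.00375), for which the tenocyte-like sums held 0 to 7 UMIs each. With a library left out, 3 fits could be made, each without a day 0 library. The call of Bgn was lost without day 0 replicate 1 (adjusted p = 0.0571) and that of Lum without day 0 replicate 3 (0.73, adjusted p = 0.119).

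Treatment with the CD47-activating peptide was compared with day 7 to ask whether it altered SLRP expression at the injury site. In stromal-like cells 0 of 8 members passed the test in either direction, where 0% of 13546 genes were higher and 0.00738% (1 gene) lower, and 1 member had an unadjusted p under 0.05. This was Ogn, which was at 264, 326, 284 and 276 CPM with p7N3 and at 346, 559, 502 and 325 CPM on day 7. The 2 groups overlapped. The log2 fold change by edgeR was -0.59 ± 0.17 (adjusted p = 0.164). DESeq2 called this 1 member (adjusted p = 0.0483), among 279 of 13325 genes. For the other 7 members the fold changes lay between -0.34 and +0.08, and 2 SE on either side spanned -0.20 to 0.36 for Dcn, -0.27 to 0.04 for Bgn, -0.39 to 0.25 for Lum and -0.77 to 0.09 for Aspn. The spans were -0.78 to 0.42 for Omd, -0.49 to 0.23 for Prelp and -0.35 to 0.13 for Podn. In mural-like cells 0 of 7 passed (0.0106% of 9415 genes higher and 0% lower), 0 had an unadjusted p under 0.05 and 0 were called by DESeq2. There 2 SE on either side spanned -0.22 to 0.25 for Bgn, the narrowest, and -0.50 to 0.01 for Aspn. The spans were wider for Dcn (-0.23 to 0.82), Lum (-0.73 to 0.69), Podn (-0.79 to 0.64), Prelp (-1.16 to 0.45) and Ogn (-1.30 to 0.39). The change of 0 of 8 members differed between mural-like and stromal-like cells (0.0304% of 13171 genes), and 0 had an unadjusted p under 0.05.

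The p7N3 comparison was also made within clusters. In the Myoc, Clec3b and C1qtnf3 clusters 0 of 7, 0 of 7 and 0 of 8 members tested passed the edgeR test, a comparison in which 0%, 0.182% and 0.0459% of genes were higher and 0%, 0.0507% and 0.0734% lower. An unadjusted p under 0.05 was reached by 0 members, 1 member (Ogn) and 0 members in turn. DESeq2 was not run within clusters. The difference of Ogn was -0.24 ± 0.19, -0.29 ± 0.12 and -0.14 ± 0.16 in these clusters. The C1qtnf3 cluster, which had the highest Ogn of the 3 on day 7 (723 CPM), made up 19.6% of stromal-like cells with p7N3 and 32.0% on day 7, and the part of this in the value of Ogn was not tested. Tenocyte-like cells could not be compared, since a single p7N3 library, with 12 of them, held at least 10.

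Relatives of the family outside the 8 members were read from a list of 10 genes. In stromal-like cells 1 of the 4 tested was higher and 2 were lower on day 3 than on day 0 (all genes 33.4% and 32.8%), 6 of 9 higher and 2 lower on day 7 (27.9% and 27%), and 4 of 7 higher and 1 lower on day 21 (18.4% and 19.1%). The median log2 fold changes were -1.12, 1.39 and 0.72, each over the relatives tested on that day, which were not the same genes. Of those higher on day 7, Optc, Epyc and Podnl1 averaged no more than 0.43 CPM on day 0. On day 7 they averaged 2.80, 3.56 and 10.8 CPM. Genes this low on day 0 enter the test through the later day, so that the counts and medians are descriptions. Epyc, a class III relative, was at 16.6 to 22.8 CPM on day 21 and at 0 to 2 UMIs in each day 0 library. Podnl1, the closest relative of Podn, was at 9.51 to 12.2 CPM on day 7 and at no more than 0.536 CPM on day 0. Ecm2, the neighbour of Aspn on chromosome 13, fell by 4.64 ± 0.27 on day 3 (adjusted p = 2.84e-08) and 2.26 ± 0.18 on day 7 (adjusted p = 7.57e-07). In tenocyte-like cells of day 21, Fmod (-1.33 ± 0.19, adjusted p = 0.000175), Kera (-2.31 ± 0.25, adjusted p = 1.13e-05) and Chad (-3.06 ± 0.31, adjusted p = 5.40e-06) were lower than on day 0. All of them are among the leading genes of the Ptx4 cluster. That cluster held 48 of 49 tenocyte-like cells on day 0 and 64 of 855 on day 21, and the part of this in these changes was not tested. Epyc was at 23.6 to 41.8 CPM after 0 UMIs on day 0. In all, 2 of the 7 relatives tested there were higher and 4 lower (all genes 7.89% and 3.86%). The 2 higher were Epyc and Tsku, which was at 0 to 9.69 CPM on day 0 and 23.5 to 38.5 CPM on day 21. Both enter the test through day 21, so that this count is a description as well.

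Enzymes that build the sugar chains were read from a list of 29 genes. In stromal-like cells 8 of the 23 tested were higher and 5 lower on day 3 than on day 0, a share of higher genes near that of all genes (33.4%, with 32.8% lower). On day 7, 12 of 24 were higher and 5 lower (27.9% and 27% of all genes), and on day 21, 10 of 23 were higher and 3 lower (18.4% and 19.1%). Csgalnact1, which starts chondroitin sulfate chains, rose from 8.72 CPM on day 0 to 75.7 CPM on day 7 (3.20 ± 0.17, adjusted p = 4.28e-08), and Chst7, a sulfotransferase, fell from 13.1 to 2.25 CPM (-2.46 ± 0.23, adjusted p = 3.12e-06). Chst11, the chondroitin 4-O-sulfotransferase, rose on day 3 (2.86 ± 0.26, adjusted p = 1.13e-06). In mural-like cells 7 of 16 enzymes were higher and 0 lower on day 7 (24.9% and 21.8% of all genes), among them Chst2, at 27.7 to 42.1 CPM after 0 UMIs on day 0. Of the 29 enzymes, 3 were tested there on day 3 and 9 on day 21 against day 0. Genes this low on day 0 enter the test through the later day, so that these counts are descriptions. The Myh11 cluster held 136 of 181 mural-like cells on day 0 and 70 of 559 on day 7. The part of this shift in the enzyme values was not tested. With p7N3 against day 7 the median log2 fold change of the enzymes was -0.06 in stromal-like cells.

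Collagens and other fibril partners were read from a list of 16 genes. In stromal-like cells 1 was higher and 10 were lower on day 3 than on day 0 (all genes 33.4% and 32.8%), 8 were higher and 3 lower on day 7 (27.9% and 27%), and 12 were higher and 1 lower on day 21 (18.4% and 19.1%). Col12a1, a collagen on the fibril surface, rose on day 3 (3.16 ± 0.12, adjusted p = 1.28e-09), day 7 (4.77 ± 0.22, adjusted p = 2.18e-08) and day 21 (4.22 ± 0.15, adjusted p = 7.26e-09). In mural-like cells 14 of the 15 tested were higher on each of days 3, 7 and 21 than on day 0 and 0 were lower, against 28.6%, 24.9% and 15.8% of all genes higher, with median log2 fold changes of 2.37, 2.32 and 2.25. The 17 stromal markers together were at no more than 3019 CPM on day 0 and at least 10369.5 CPM on days 3 to 21 in the same sums. The Myh11 cluster held 136 of 181 mural-like cells on day 0 and 70 of 559 on day 7. The part of either shift in the collagen values was not tested. Col1a1 rose there from 299.7 CPM to 2901 CPM on day 7 (3.19 ± 0.17, adjusted p = 1.78e-10). In tenocyte-like cells of day 21, 11 of 16 were higher and 1 lower than on day 0 (all genes 7.89% and 3.86%), and most of these cells lay in another cluster than on day 0.

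Likeness of pattern was measured as the Pearson correlation of log2(CPM + 1) over 160 sums of library and cell type, across 13 types and 10700 genes. The non-member genes closest to Bgn were Col5a2 (r = 0.91), Col5a1 (r = 0.90) and Col6a2 (r = 0.90), and those closest to Lum were Col1a2 (r = 0.89) and Col1a1 (r = 0.89). Dcn was closest to Mfap5 (r = 0.89), Itgbl1 (r = 0.88) and Serpinf1 (r = 0.87), and Ogn likewise to Mfap5 (r = 0.85). For Prelp the closest was Boc (r = 0.84), for Omd Fbln7 (r = 0.79), for Podn Fbn1 (r = 0.76) and for Aspn Col6a2 (r = 0.88). Over the 19 stromal-like sums, Dcn and Podn had r = 0.98, Dcn and Omd r = 0.96, and Lum and Aspn r = 0.91, while Bgn and Dcn had r = -0.50. In these stromal-like sums the genes named above had r = 0.78, 0.75 and 0.36 with Bgn and 0.95 and 0.89 with Lum, in the order given. For Dcn they had r = 0.89, 0.62 and 0.90. The value was 0.93 for Ogn, 0.85 for Prelp, 0.37 for Omd, 0.91 for Podn and 0.94 for Aspn. The sums of a library share its depth and free RNA, those of a day share its cells, and the values are descriptions without a test.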

How the data were processed

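The deposited matrices hold UMI counts per gene and cell, one per library. The submitters' processing notes name Cell Ranger and Seurat and the builds GRCh38 and mm10, and the gene identifiers are those of mouse. Cells under 500 genes or above 25% mitochondrial UMIs were left out. They were clustered with scanpy 1.11.5 (Python 3.11.15; 2000 variable genes without the SLRP genes and relatives, 30 components, 20 neighbours, leidenalg 0.10.2, resolution 0.8) and named from fixed markers. A cluster led by both tenocyte and chondrocyte markers was clustered again at resolution 0.2, a step chosen after seeing the data, as were the comparisons within clusters. Doublets were kept, and an alternative left out the 3.9% of cells with the highest Scrublet scores. Counts were summed per library and class (at least 10 cells) and tested over all genes with edgeR 4.0.16 (R 4.3.3; TMM factors, filterByExpr, quasi-likelihood F test, adjusted p under 0.05), with DESeq2 1.42.0 as an alternative, after tests on simulated data. CPM used the total of the class. The text names the 8 members, up to 3 list genes a direction with the largest log2 fold change among those past the test whose groups did not overlap and whose higher mean was at least 5 CPM, and the 3 most alike genes. List genes first seen at 0 to 2 UMIs are given as levels. Members and lists were chosen with earlier results of these data known.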

Additional observations from a re-analysis of the deposited data

Results flagged for a closer look

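Of 72 groups of 4 libraries examined for a library far from the others, 4 held one, and chance gives about 1 in 20. Dcn in stromal-like cells was at 15971 CPM in day 0 replicate 3, above the other 3 day 0 libraries. Lum in stromal-like cells was at 1279 CPM in p7N3 replicate 1, and Omd in stromal-like cells at 45.2 CPM in day 0 replicate 2. Omd in mural-like cells was at 4.50 CPM in day 0 replicate 4, which is 1 UMI.

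The change from day 0 to day 7 differed between cell classes by the interaction test for 8 pairs of gene and class. The stromal-like, mural-like and tenocyte-like classes were each made of different shares of their clusters on day 0 and on day 7. Mural-like less stromal-like cells, the difference in log2 fold change was 1.42 for Dcn, 0.82 for Bgn, -1.64 for Ogn, 2.83 for Podn and -1.16 for Aspn. Tenocyte-like less stromal-like cells, it was -1.20 for Bgn, 1.11 for Lum and 2.87 for Podn.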

How the results depend on the processing

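Counts of SLRP genes past the test stayed within 1.5 times the reported value in 239 of 251 recomputations. The exceptions were as follows. In stromal-like cells 2 members passed on day 21 against day 0 in the Myoc cluster alone (7 in the class), 2 in the Myoc and 3 in the Clec3b cluster on day 21 against day 7 (5 in the class), and 1 with p7N3 by DESeq2. In tenocyte-like cells on day 21 against day 7 the count was 2 without a filter, 2 by DESeq2, 6 with all genes allowed as variable genes and 0 to 1 with a library left out (1 without day 7 replicate 2 or 3). Tenocyte-like less stromal-like cells, it was 5 without the top Scrublet scores and 1 with all genes allowed. In mural-like cells on day 21 against day 0 it was 3 to 5 with a library left out (3 without day 0 replicate 4).

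Directions turned, on the log2 scale, as follows. Within the Myoc cluster, stromal-like Prelp was 0.12 and Aspn -0.38 on day 7, Prelp 0.056 and Aspn -0.089 on day 21 against day 0, Bgn 0.18, Ogn -0.10 and Prelp -0.054 on day 21 against day 7, and Dcn -0.012, Podn 0.31 and Aspn 0.24 with p7N3. The Clec3b cluster gave Bgn 0.022 on day 21 against day 7 and Dcn -0.0083 with p7N3, and the C1qtnf3 cluster Dcn -0.061, Prelp 0.15, Podn 0.24 and Aspn 0.054 with p7N3. With tenocyte-like and chondrocyte-like cells added to the stromal-like class, Prelp was 0.17 on day 21 against day 0 and Bgn 0.30 against day 7. With all genes allowed as variable genes, Aspn was -0.19 in stromal-like cells on day 21 against day 7, and tenocyte-like Aspn was -0.017 on day 7, with Omd 1.02 and Aspn 0.55 on day 21 against day 7. At resolution 2 that Aspn was 0.065. In mural-like cells with p7N3, Lum was 0.10 and Podn 0.14 without the top Scrublet scores, and mural-like less stromal-like Dcn was -0.0016 and Ogn -0.36. Tenocyte-like less stromal-like on day 7, Ogn was 0.039 with RLE factors, 0.13 without the top Scrublet scores, 0.22 at resolution 2 and 0.37 with all genes allowed, where Prelp was -0.70 and Omd -0.14. The cause of these turns was not tested.

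With each library left out in turn, the values of results that turned ranged, with p7N3, from -0.20 to 0.033 for stromal-like Lum, -0.36 to 0.0048 for Prelp, -0.042 to 0.14 for mural-like Bgn, -0.30 to 0.42 for Lum, -0.69 to 0.10 for Prelp and -0.30 to 0.21 for Podn. Mural-like less stromal-like they were -0.059 to 0.46 for Lum, -0.31 to 0.51 for Ogn, -0.54 to 0.20 for Prelp, -0.51 to 1.04 for Omd, -0.19 to 0.35 for Podn and -0.063 to 0.25 for Aspn. Tenocyte-like cells gave -0.079 to 0.81 for Ogn and -0.82 to 0.070 for Aspn on day 21 against day 7, and, less stromal-like cells, -0.24 to 0.13 for Ogn and -0.39 to 0.016 for Aspn on day 7. Mural-like Dcn gave -0.76 to 0.33 on day 7 and -0.058 to 1.03 on day 21 against day 0, and Aspn -0.17 to 0.023 on day 21 against day 7.

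Replicate numbers were not taken to pair the libraries, since no comparison had every same-numbered pair above r = 0.1. With p7N3 each stromal-like library correlated best with its own number (r = 0.0606 to 0.104), a hint from the data only. With the replicate block the stromal-like counts were 8, 8, 7, 6 and 0, the tenocyte-like counts 6 and 0, the mural-like counts 4, 4, 5, 4 and 0, and mural-like Lum and Podn with p7N3 were 0.086 and 0.029. Not fitted were tenocyte-like cells on day 3, with p7N3 and, under the block, on day 7. Single stromal-like clusters were not fitted on day 3 either, since their cells on day 0 or day 3 were too few. Depth was lowest on day 0, and mural-like Lum and Podn rest on 15 and 5 UMIs there. Comparisons within clusters were added after seeing the data.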
